A study of Mus musculus with 24 samples.

Results

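Ccl2, Ccl7, Ccl8 and Ccl12 are 4 CC chemokine genes that attract monocytes, and their RNA was followed in mouse lung after 6 carbon nanomaterials. They were taken as a list of names, matched to the array through the platform annotation, and where a gene had several spots the one with the highest mean over all 24 samples stood for it. All 4 genes were found, out of 20738 named genes, and all 4 were among the 16519 genes that passed a filter on dim signals. They were carried by 13 spots, of which 10 were for Ccl2 and 1 each for the other genes.

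The mice were female C57BL/6 mice, 7 to 8 weeks old, with no altered gene named in the labels. The daily dose of a material was 10 µg in 50 µl of phosphate-buffered saline (PBS), placed in the throat and inhaled (oropharyngeal aspiration), on 4 days in a row. Lungs were collected 24 h later. The groups are called rCNT (3 samples), tCNT (3), SES (3), BayTubes (4), Graphite (4), fullerene (4) and Ctrl (3), the last given PBS alone. CNT stands for carbon nanotube and BayTubes is the trade name of a multi-walled nanotube product. The labels do not spell out SES. Each sample was RNA pooled from 2 mice, so the spread between samples is a spread between pools and hides part of the difference between animals.

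Chemokines are small secreted proteins that guide white blood cells along a gradient. In mice Ccl2, Ccl7 and Ccl12 act through the receptor Ccr2, which draws monocytes out of the bone marrow and into inflamed tissue. Mouse Ccl8 acts mainly through Ccr8, a receptor of some T cells, whereas its human counterpart uses several other receptors. In the lung these genes can be switched on in macrophages, epithelial cells and fibroblasts by cytokines such as tumour necrosis factor and interleukin 1.

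The 4 genes lie in 1 cluster on mouse chromosome 11. In RefSeq's gene order (GRCm38.p6) the coding genes run Ccl2, Ccl7, Ccl11, Ccl12, Ccl8 and Ccl1, with a long non-coding RNA gene, Gm38913, between Ccl11 and Ccl12. RefSeq's promoter table held an entry for 2 of the 4 genes, Ccl8 and Ccl12. Their 250 bases upstream of the gene start are printed because only these 2 had an entry. Any link between these letters and the size of a response was not tested. The Ccl8 stretch is chr11:82114935-82115184 and the Ccl12 stretch is chr11:82101595-82101844, both on the plus strand of GRCm38.p6, with the TATA motif in capitals.
Ccl8: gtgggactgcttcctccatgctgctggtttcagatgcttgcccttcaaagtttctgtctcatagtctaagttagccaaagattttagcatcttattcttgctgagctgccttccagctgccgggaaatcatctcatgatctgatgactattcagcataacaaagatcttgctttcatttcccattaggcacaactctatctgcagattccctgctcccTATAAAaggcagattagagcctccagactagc
Ccl12: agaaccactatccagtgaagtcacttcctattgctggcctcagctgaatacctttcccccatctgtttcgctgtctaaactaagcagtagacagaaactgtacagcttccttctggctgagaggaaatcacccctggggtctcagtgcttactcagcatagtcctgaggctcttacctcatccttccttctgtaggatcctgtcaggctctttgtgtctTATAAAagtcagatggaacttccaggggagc

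The motif TATAAA began 32 bases before the start of Ccl8 and 31 bases before the start of Ccl12. It was present in 13.6% of the 32851 mouse promoter windows of 300 bases, which include 50 bases after the start, searched on both strands. The windows of both genes were also searched on both strands for the AP-1 motif TGANTCA, the STAT motif TTCNNNGAA, the C/EBP motif TTGCNNAA, the GC box GGGCGG, the box named after its letters CCAAT, and the NF-kB consensus. None of these 6 was in either window. They were present in 7.81%, 8.3%, 10.8%, 35.7%, 37.4% and 8.46% of all windows, in that order. A match or its absence describes only the letters of these windows.

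The samples were measured on 12 two-colour arrays on 3 slides, with 2 samples to an array, 1 in each dye. Values are log2 signals, and a difference of 1 is a doubling. Array signals are not counts, and the precision of a value comes from how many samples a group had. The tissue label was checked against 5 markers of lung epithelium (Sftpc, Sftpb, Ager, Scgb1a1 and Abca3), whose mean level was 15.5 to 16.2 in every sample, near the top of the scale. After group and dye were taken out, the 2 samples of an array were correlated over genes, from 0.40 to 0.87, with the highest value for the array of rCNT 4 and Graphite 16. Ctrl 2 lay on slide 1 and Ctrl 1 and Ctrl 3 on slide 2, while slide 3 held no Ctrl sample. All 4 chemokine genes were above the 40th percentile of the array (5.69 to 5.75) in all 24 samples.

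Ccl2, the main monocyte attractant of the group, had signals of 11.99, 12.33 and 12.99 in rCNT 4, 5 and 6, against 6.88, 7.48 and 7.53 in Ctrl 1, 2 and 3. The lowest rCNT sample lay more than 4 log2 units above the highest Ctrl sample. Ccl2 was at 9.20, 9.80, 8.78 and 9.73 in BayTubes 17, 18, 19 and 20. In Graphite 13, 14, 15 and 16 it was at 8.46, 9.15, 8.85 and 8.75. All 8 of these samples were above every Ctrl sample, and the ranges of both materials overlapped. The values were 8.55, 8.04 and 8.84 in tCNT 7, 8 and 9. They were 7.94, 7.43 and 7.80 in SES 10, 11 and 12, where SES 11 fell within the Ctrl range. In fullerene 21 Ccl2 was at 9.55, while fullerene 22, 23 and 24 had 7.95, 7.72 and 7.71. The fullerene group was thus split, with 1 sample at the level of BayTubes and 3 samples close above Ctrl.

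Fullerene 21 shared its array with rCNT 5, and Graphite 14 and Graphite 16 shared theirs with rCNT 6 and rCNT 4. Graphite 14 had the highest Ccl2 signal of the Graphite samples and Graphite 16 the second lowest. Whether a bright sample in 1 dye moves the value in the other dye was not tested. Markers of monocytes and recruited macrophages (11 measured genes) had a mean level of 11.5 in fullerene 21, against 10.9 to 11.2 in the other fullerene samples.

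Ccl7, a close relative of Ccl2 that shares its receptor Ccr2, had signals of 11.13, 11.24 and 12.15 in rCNT 4, 5 and 6, against 6.19, 6.20 and 6.44 in Ctrl 1, 2 and 3. Ctrl samples were less than 1 log2 unit above the 40th percentile, so the gene was dim there and bright after rCNT. In BayTubes 17, 18, 19 and 20 it was at 8.29, 7.07, 7.43 and 8.59. Graphite 13, 14, 15 and 16 gave 6.99, 7.59, 7.66 and 7.30. In both groups every sample was above every Ctrl sample. Ccl7 was at 7.31, 7.18 and 7.47 in tCNT 7, 8 and 9. In SES 10, 11 and 12 it was at 6.87, 6.48 and 6.88. In fullerene 21, 22, 23 and 24 it was at 7.89, 6.92, 7.10 and 7.05. SES came nearest to Ctrl, and SES 11 was only just above Ctrl 3. Fullerene 21 was again the highest of its group.

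Ccl8, the ligand of Ccr8 in mice, had signals of 12.26, 13.26 and 13.27 in rCNT 4, 5 and 6, against 7.68, 7.64 and 8.21 in Ctrl 1, 2 and 3. A spot's brightness also depends on its probe, so levels of different genes were not compared. In BayTubes 17, 18, 19 and 20 Ccl8 was at 11.18, 9.34, 9.11 and 10.05. The values in Graphite 13, 14, 15 and 16 were 9.83, 9.23, 9.63 and 9.26. BayTubes covered over 2 log2 units and Graphite under 1. The tCNT samples 7, 8 and 9 had 9.75, 10.01 and 9.51. The SES samples 10, 11 and 12 had 8.68, 8.26 and 9.42. In fullerene 21, 22, 23 and 24 Ccl8 was at 10.11, 9.38, 9.41 and 8.63. Every sample of every material was above every Ctrl sample, although SES 11 exceeded Ctrl 3 by very little.

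Ccl12, a Ccr2 ligand found in mice, had signals of 10.23, 9.78 and 10.17 in rCNT 4, 5 and 6, against 6.70, 6.54 and 6.86 in Ctrl 1, 2 and 3. In BayTubes 17, 18, 19 and 20 it was at 8.50, 7.48, 7.79 and 8.43. Graphite 13, 14, 15 and 16 had 8.35, 6.99, 8.10 and 7.42. The Graphite samples were the most spread of all groups for Ccl12, and Graphite 14, the highest for Ccl2, was the lowest here. Ccl12 was at 7.57, 7.91 and 7.52 in tCNT 7, 8 and 9. In SES 10, 11 and 12 it was at 7.30, 7.15 and 7.52. The values were 8.30, 7.90, 7.92 and 7.56 in fullerene 21, 22, 23 and 24. All samples of all 6 materials were above the 3 Ctrl samples.

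**Figure D1:**
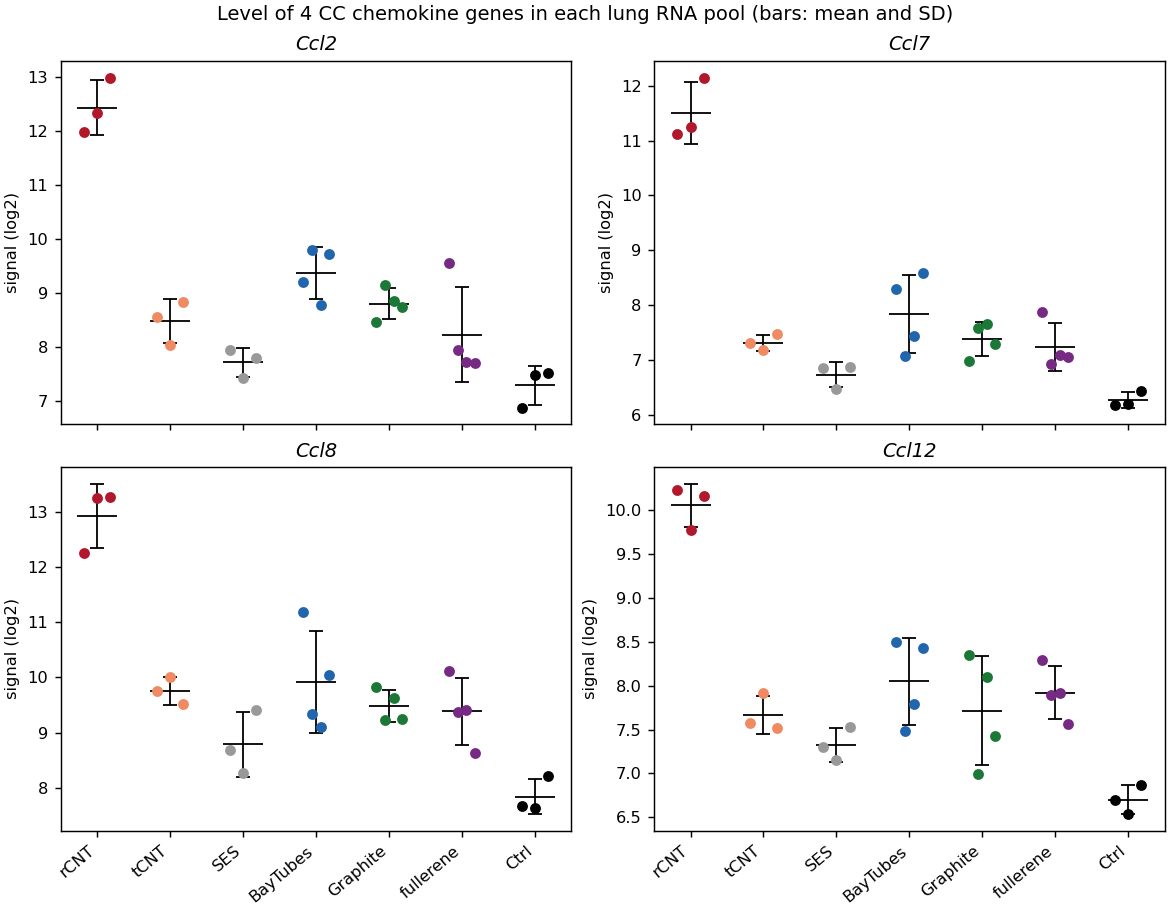
Log2 signal (vertical axis, a separate scale for each gene) of Ccl2, Ccl7, Ccl8 and Ccl12 in each pool of lung RNA, by group along the horizontal axis. Points are samples, long bars are group means and short bars the SD. The 3 rCNT samples lie above all other samples for every gene, Ctrl samples lie lowest except that SES 11 falls among them for Ccl2, and fullerene 21 stands above the other 3 fullerene samples for Ccl2 (9.55).

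The order of the group means was the same at its ends for all 4 genes, with rCNT highest, BayTubes second, SES sixth and Ctrl lowest, while tCNT, Graphite and fullerene changed places between genes. Mean Ccl2 was 12.44 ± 0.51 in rCNT, 9.38 ± 0.48 in BayTubes, 8.80 ± 0.28 in Graphite, 8.48 ± 0.41 in tCNT, 8.23 ± 0.89 in fullerene, 7.72 ± 0.27 in SES and 7.29 ± 0.36 in Ctrl (SD, n = 3 or 4). For Ccl12 fullerene came next after BayTubes with 7.92 ± 0.30, and tCNT stood just above SES with 7.67 ± 0.21. From BayTubes down to SES, no neighbours in these orders differed by the test given further on, and SES did not pass it against Ctrl.

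Each material was compared with Ctrl to ask which lung genes it changed. The test was limma, a linear model fitted to all 16519 genes with terms for group and dye and with the array as a random block. An adjusted p under 0.05 (Benjamini-Hochberg over the genes of a comparison, 2-sided) counted as a change. The replicates are pools, and a p-value sets a difference against the spread between pools, fitted over all groups.

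After rCNT all 4 genes rose, from 10.6-fold to 35.0-fold. Ccl8 rose by 5.13 ± 0.46 log2 units (SE, n = 3 against 3; 35.0-fold, 95% interval 18.1 to 67.9, limma adjusted p = 3.95e-07). Ccl7 rose by 4.99 ± 0.33 (31.9-fold, interval 19.6 to 51.7, limma adjusted p = 6.31e-08) and Ccl2 by 4.90 ± 0.38 (30.0-fold, interval 17.2 to 52.1, limma adjusted p = 9.29e-08). The rise of Ccl12 was smaller, 3.41 ± 0.30 (10.6-fold, interval 6.90 to 16.4, limma adjusted p = 3.40e-07). Ordered by the size of the rise among the 16519 genes, Ccl8 was 5th, Ccl7 8th, Ccl2 9th and Ccl12 26th. Of all genes 12.4% rose by this test after rCNT. In bulk lung RNA, more cells that make a chemokine and more RNA per cell cannot be told apart. Without the array of rCNT 4 and Graphite 16 the rises were 5.38, 5.13, 5.03 and 3.38 for Ccl8, Ccl7, Ccl2 and Ccl12. In the same order they were 4.54, 4.81, 4.78 and 3.66 within slide 1, which holds 1 rCNT and 1 Ctrl sample, and 4.62, 6.38, 6.35 and 1.99 within slide 2, where 1 rCNT sample and 2 Ctrl samples carry opposite dyes. Without the dye term the slide 2 values were 5.55, 5.66, 5.62 and 3.82.

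After BayTubes all 4 genes rose too, by smaller factors. Ccl2 rose by 2.07 ± 0.31 log2 units (SE, n = 4 against 3; 4.21-fold, limma adjusted p = 0.000843) and was the 5th largest rise in that comparison. That size and rank rest on the chosen spot, and the 9 other Ccl2 spots gave 1.57 to 1.78. With the mean of its 10 spots Ccl2 rose by 1.68 (limma adjusted p = 0.00256), less than Ccl8. Ccl8 rose by 2.03 ± 0.37 (4.08-fold, limma adjusted p = 0.00373) and was the 7th largest. Ccl7 rose by 1.49 ± 0.27 (2.81-fold, limma adjusted p = 0.00373) and Ccl12 by 1.36 ± 0.25 (2.56-fold, limma adjusted p = 0.00323). Of all genes 2.16% rose after BayTubes. With the array as a fixed term, which compares samples within arrays, 1 of the 4 genes passed, and within slide 1, with Ctrl 2 as its only Ctrl sample, the differences were 1.84, 1.38, 1.05 and 1.06 for Ccl2, Ccl8, Ccl7 and Ccl12 and none passed (limma adjusted p from 0.297 to 0.838). Within slide 2, where 1 BayTubes sample and 2 Ctrl samples carry opposite dyes, they were 2.96, 1.29, 2.78 and 0.22, or 2.36, 2.04, 2.19 and 1.70 without the dye term.

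After Graphite Ccl2 rose by 1.55 ± 0.34 log2 units (SE, n = 4 against 3; 2.93-fold, limma adjusted p = 0.0312) and Ccl8 by 1.72 ± 0.40 (3.30-fold, limma adjusted p = 0.0428). Ccl7 and Ccl12 differed from Ctrl by 0.99 ± 0.29 and 1.01 ± 0.26 and did not pass (limma adjusted p = 0.0864 and 0.0607). The count of 2 of 4 stands against 0.545% of all genes. It fell to 0 when Graphite 13, Graphite 16 or any of the 3 Ctrl samples was left out, was 0 with the array as a fixed term, and was 3 without Graphite 14. Within slide 1, with 1 Ctrl sample, and within slide 2, with 2 Ctrl samples of 1 dye, the Ccl2 difference was 1.47 and 1.95 and the Ccl8 difference 1.11 and 1.29.

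After tCNT only Ccl8 passed the test, with a rise of 1.98 ± 0.45 log2 units (SE, n = 3 against 3; 3.94-fold, limma adjusted p = 0.0475), close to the threshold. Ccl2 differed by 1.31 ± 0.38, Ccl12 by 0.96 ± 0.30 and Ccl7 by 0.94 ± 0.33 (limma adjusted p = 0.136, 0.184 and 0.296). Of all genes 0.684% rose after tCNT. The Ccl8 call was lost when tCNT 8, tCNT 9 or any Ctrl sample was left out and with the array as a fixed term, and within slide 1, with 1 Ctrl sample, the Ccl8 difference was 1.39. The 5 heart muscle markers had a mean level of 11.0 to 11.5 in the tCNT samples, against 8.6 to 11.0 in Ctrl (median change 1.70, 0 of 5 passed), and their part in the tCNT values was not tested.

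After fullerene and after SES none of the 4 genes passed. The fullerene differences were 1.57 ± 0.42 for Ccl8, 1.25 ± 0.28 for Ccl12, 0.92 ± 0.35 for Ccl2 and 0.84 ± 0.31 for Ccl7 (SE, n = 4 against 3; limma adjusted p from 0.0656 to 0.313), with all 4 at an unadjusted p under 0.05. Of all genes 0.151% rose after fullerene. Without fullerene 21 the differences were 1.33, 1.12, 0.51 and 0.63 in the same order. The SES differences were 1.01 ± 0.44 for Ccl8, 0.69 ± 0.29 for Ccl12, 0.67 ± 0.37 for Ccl2 and 0.52 ± 0.33 for Ccl7 (SE, n = 3 against 3; limma adjusted p = 0.976 for each), with 2 of 4 at an unadjusted p under 0.05. The limma count over all genes was 0 (0%) after SES, with 747 genes at an unadjusted p under 0.05. The 95% intervals for SES reached up to 1.94 for Ccl8 and 1.20 for Ccl7, so the intervals include rises of that size.

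**Figure D2:**
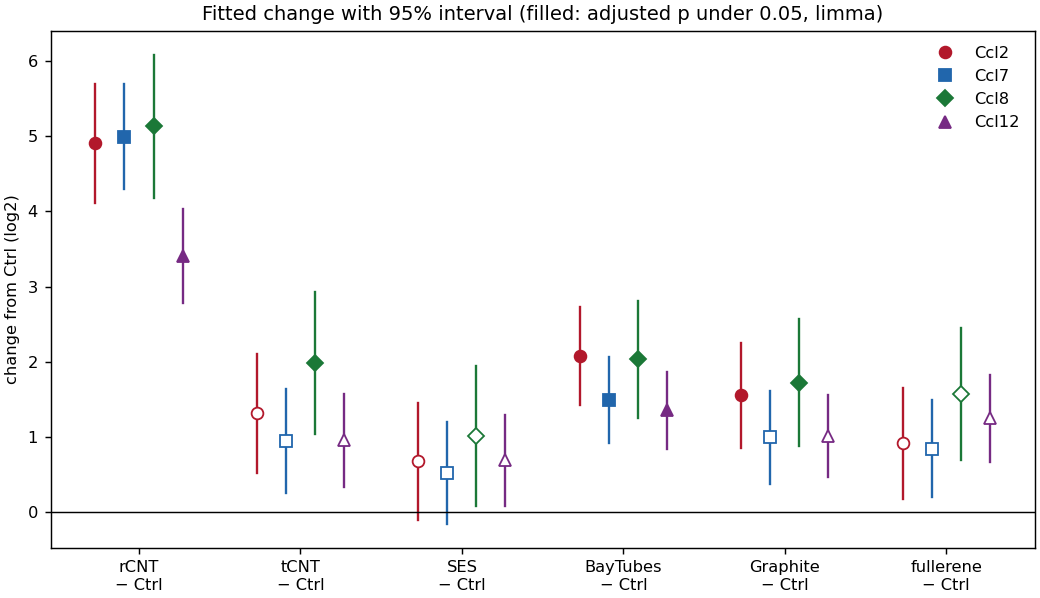
Fitted log2 change from Ctrl (vertical axis) with its 95% interval for the 4 genes after each material, along the horizontal axis. Filled symbols passed an adjusted p under 0.05 in limma: all 4 genes for rCNT and for BayTubes, 2 for Graphite, 1 for tCNT, and 0 for SES and fullerene.

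The samples were also compared without a model. For rCNT, tCNT, BayTubes, Graphite and fullerene all 4 genes had every sample above every Ctrl sample, and for SES 3 of 4 did, all but Ccl2. Over all genes this held for 18.9% after rCNT, 8.94% after tCNT, 7.25% after SES, 6.54% after BayTubes, 9.41% after Graphite and 11.2% after fullerene. The 6 comparisons use the same 3 Ctrl samples, so they are not separate evidence of a direction.

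The response to rCNT was also larger than the response to each of the other 5 materials. All 4 genes were higher in rCNT in each of these 5 comparisons, although with the array as a fixed term 2 of 4 passed against tCNT and 1 of 4 against BayTubes. Ccl7 showed the widest gaps, with 4.05 ± 0.33 against tCNT, 4.48 ± 0.33 against SES, 3.50 ± 0.31 against BayTubes, 4.00 ± 0.27 against Graphite and 4.15 ± 0.29 against fullerene (log2 units ± SE; limma adjusted p from 4.30e-08 to 1.82e-06). Ccl12 showed the narrowest, from 2.05 ± 0.28 against BayTubes to 2.72 ± 0.30 against SES. Of all genes 5.71% were higher in rCNT than in tCNT, 10.0% than in SES, 8.00% than in BayTubes, 12.8% than in Graphite and 12.0% than in fullerene.

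Among the other 5 materials 10 pairs were compared, and in limma 0 of 40 differences passed the adjusted threshold, with 10 at an unadjusted p under 0.05. Over all genes 0.0466% of tests passed in these pairs. The difference nearest to the threshold was Ccl2 between SES and BayTubes, with -1.40 ± 0.33 for SES minus BayTubes (95% interval -2.09 to -0.71, limma adjusted p = 0.167). With the mean of the 10 Ccl2 spots it was -1.04 (limma adjusted p = 0.3865). Between BayTubes and Graphite, after both of which Ccl2 rose, the Ccl2 difference was 0.52 ± 0.33 (interval -0.16 to 1.20). That interval includes both 0 and a gap of 1 log2 unit. With the mean of the 10 spots the Ccl2 rise from Ctrl was 1.68 after BayTubes and 1.39 after Graphite.

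Set beside the rCNT rise on the log2 scale, the other materials gave 10.4% (Ccl7 after SES) to 42.3% (Ccl2 after BayTubes). With the mean of all 10 Ccl2 spots that Ccl2 share was 36.4%, below Ccl12 (39.8%) and Ccl8 (39.6%) after BayTubes. For Ccl8 the share was 38.6% after tCNT, 19.8% after SES, 39.6% after BayTubes, 33.6% after Graphite and 30.7% after fullerene. For Ccl7 it was 18.9%, 10.4%, 29.9%, 19.9% and 16.9% in the same materials. These shares all use the same rCNT and Ctrl samples and are given as a description.

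Within groups the 4 genes were set against their group means, and no other set of 4 genes was counted for comparison. In 12 of 24 samples all 4 lay on the same side of their group means, 6 above and 6 below, with Ctrl 1 counted below, whose Ccl12 value was at its group mean to within rounding. The count rests on the chosen Ccl2 spot. By the mean of all Ccl2 spots BayTubes 17 (9.18) lay above its group (8.99) and BayTubes 18 (8.37) below it. On that measure tCNT 7 (8.45) lay below its group (8.51). Each was then on the side of its Ccl7, Ccl8 and Ccl12, so the count would change. Fullerene 21 was above its group mean for all 4 genes, by 1.32 for Ccl2, 0.65 for Ccl7, 0.73 for Ccl8 and 0.38 for Ccl12. Graphite 13 and Graphite 14 were split, with Graphite 14 above its group mean for Ccl2 (0.35) and Ccl7 (0.21) and below it for Ccl8 (-0.25) and Ccl12 (-0.73).

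Ccl2 was measured by 10 spots, which show how far a value rests on 1 spot. The SD between the 10 spots of a sample had a median of 0.17. All 9 other spots of Ccl2 passed the test after rCNT, with rises of 3.75 to 4.79, and 8 of 9 passed after BayTubes (1.57 to 1.78) and after Graphite (0.53 to 1.54). None passed after tCNT (1.11 to 1.32), SES (0.51 to 0.80) or fullerene (0.69 to 0.90). The spot with the highest mean gave a larger value than all 9 others after rCNT, BayTubes, Graphite and fullerene. In BayTubes 18 that spot was at 9.80, the next brightest Ccl2 spot at 8.61 and the mean of all 10 at 8.37. With the mean of the 10 spots the Ccl2 rise was 4.61 after rCNT, 1.68 after BayTubes and 1.39 after Graphite (limma adjusted p = 8.80e-08, 0.00256 and 0.0378).

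**Figure D3:**
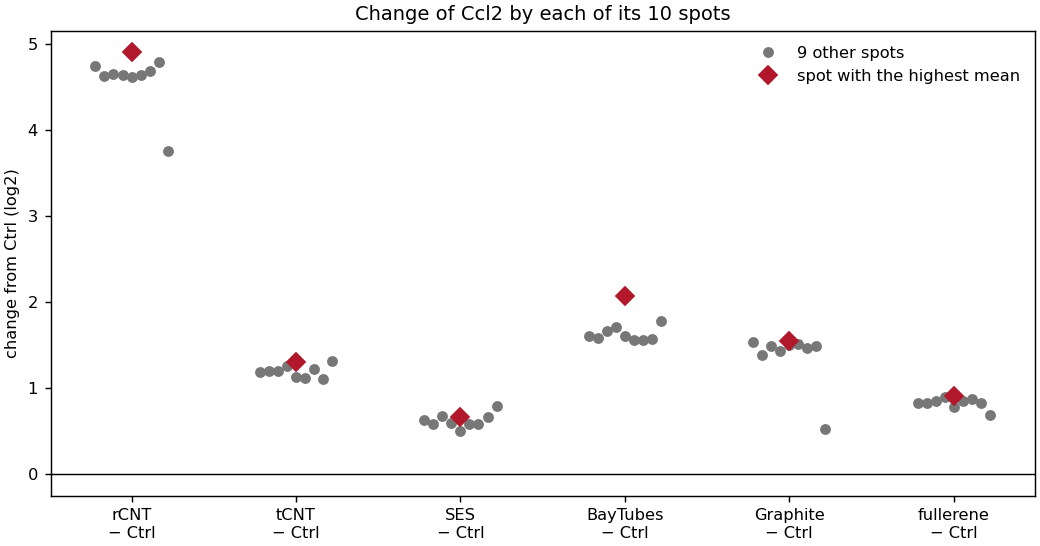
Log2 change of Ccl2 from Ctrl (vertical axis) by each of its 10 spots, by material along the horizontal axis. Red diamonds are the spot with the highest mean and grey points the 9 others. After BayTubes the red diamond (2.07) lies above all grey points (1.57 to 1.78), and 1 grey point stands low after rCNT (3.75) and Graphite (0.53).

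The neighbours within the cluster were set beside the 4 genes. Ccl11, an eosinophil attractant that lies between Ccl7 and Ccl12, rose after rCNT by 3.84 ± 0.33 log2 units (limma adjusted p = 2.71e-07) and passed after no other material, with the smallest of those adjusted p-values after BayTubes (0.96 ± 0.27, limma adjusted p = 0.0582). Ccl1, the gene next to Ccl8 and another ligand of Ccr8, rose by 1.86 ± 0.14 after rCNT (limma adjusted p = 9.24e-08) and by 0.63 ± 0.13 after Graphite (limma adjusted p = 0.0224). Ccl1 averaged 5.19 in Ctrl, which is dimmer than the 40th percentile of any array sample, and its fold is therefore only approximate. The order of the rises along the chromosome after rCNT was thus high at Ccl2 and Ccl7, lower at Ccl11 and Ccl12 and high again at Ccl8, with Ccl1 too dim in Ctrl to be placed.

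**Figure D4:**
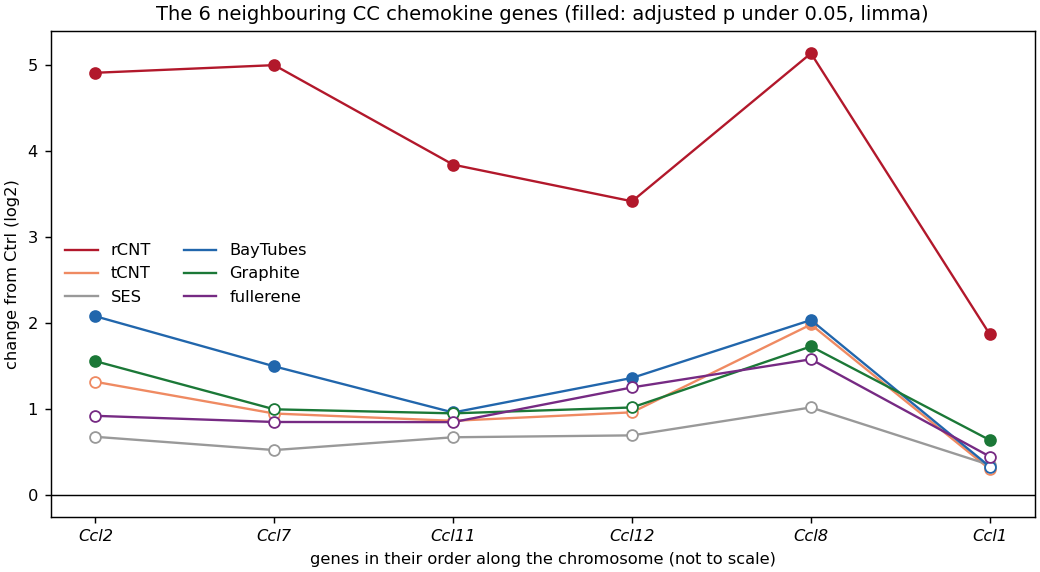
Log2 change from Ctrl (vertical axis) for the 6 coding genes of the cluster in their order on chromosome 11 (horizontal axis, not to scale), 1 line per material. Filled points passed an adjusted p under 0.05 in limma; after rCNT all 6 genes are filled, from 1.86 for Ccl1 to 5.13 for Ccl8.

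The receptors showed smaller changes, some of them falls. Of 8 receptors and scavengers listed, 6 were tested. After rCNT 4 rose and 2 fell, where 12.4% of all genes rose and 9.41% fell, with a median change of 0.87, against -0.02 over all genes. Ccr2, the receptor on monocytes, was at 9.93, 10.00 and 10.72 in rCNT 4, 5 and 6, against 8.58, 7.71 and 8.77 in Ctrl 1, 2 and 3. It rose by 1.76 ± 0.36 (3.39-fold, limma adjusted p = 0.00156), and the groups did not overlap. Ctrl 2 was the lowest of all 24 samples for Ccr2, and BayTubes 18, on the same array, was the second lowest at 8.09. Ccr3, which eosinophils carry, rose by 1.63 ± 0.30, and Ccr8 by 0.43 ± 0.14 (limma adjusted p = 0.000677 and 0.0352). Ackr1, which binds chemokines on venules without signalling, rose by 1.32 ± 0.17. Ackr1 averaged 5.72 and Ccr8 5.78 in Ctrl, close to the 40th percentile (5.69 to 5.75), so the sizes of their rises are only approximate. The scavenger Ackr2, which takes up and degrades inflammatory CC chemokines, fell by 0.49 on the log2 scale, and Ackr4, which takes up chemokines of lymphoid tissue, fell by 0.78. After Graphite Ackr1 rose by 0.64 ± 0.15 (limma adjusted p = 0.0460), and no other receptor or scavenger passed after any of the other 5 materials. Ccr1 was below the filter.

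Of 12 other CC chemokines tested, 9 rose after rCNT (12.4% of all genes), with a median of 2.23. The largest rises were those of Ccl24 (6.15 ± 0.49) and Ccl17 (4.08 ± 0.30), which attract eosinophils and T helper cells, followed by Ccl11. The macrophage inflammatory proteins Ccl4 and Ccl3 also rose, Ccl4 by 3.25 ± 0.32 and Ccl3 by 2.61 ± 0.32. Ccl5, Ccl19 and Ccl25 did not pass, at -0.00153, -0.04 and -0.04. After BayTubes 4 of 12 rose (2.16% of all genes), Ccl3 (1.27 ± 0.26), Ccl17 (1.09 ± 0.24), Ccl9 (1.03 ± 0.27) and Ccl6 (0.99 ± 0.18). After Graphite Ccl1 alone passed, and after tCNT, SES and fullerene none did.

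Of 10 tested cytokines that can induce these chemokines, 7 rose after rCNT (12.4% of all genes), with a median of 1.27. The rises were 3.08 ± 0.24 for Il6, 1.88 ± 0.43 for Il1b, 1.86 ± 0.30 for Il13, 1.82 ± 0.33 for Il4, 1.36 ± 0.27 for Tnf, 1.18 ± 0.19 for Csf2 and 0.48 ± 0.12 for Csf1. Il6 (5.53) and Il13 (5.19) averaged below the 40th percentile in Ctrl. The highest Il13 value outside rCNT was 5.66, under that percentile in every sample (5.69 to 5.75). Il13 thus passed the filter only through its rCNT samples, and its place among the 7 is not separate evidence. Ifnb1 and Il17a of the list were below the filter. The rCNT samples were uneven for Il13, at 5.76, 7.82 and 7.52 in rCNT 4, 5 and 6. For Il4 they were at 6.89, 8.67 and 8.61 in the same order. No cytokine of the list passed after another material. Nearest among them after BayTubes was Il6, at 6.41, 6.04, 6.01 and 6.43 in BayTubes 17, 18, 19 and 20, against 5.46, 5.54 and 5.58 in Ctrl 1, 2 and 3. Its difference was 0.70 ± 0.20 (limma adjusted p = 0.0556), and the groups did not overlap.

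Of 15 tested transcription factors and mRNA regulators of the pathway, 3 rose and 1 fell after rCNT, where 12.4% of all genes rose and 9.41% fell, with a median of -0.03, against -0.02 over all genes. Atf3, a stress-induced factor, rose by 1.26 ± 0.21. Tnfaip3, an inhibitor of NF-kB signalling, rose by 0.75 ± 0.19, and Zc3h12a, a ribonuclease that cleaves cytokine mRNAs, by 0.69 ± 0.18. Jun, a part of AP-1, fell by 1.43 on the log2 scale (limma adjusted p = 0.0111). It was at 11.88, 14.32 and 13.29 in rCNT 4, 5 and 6, against 14.88, 14.91 and 14.64 in Ctrl 1, 2 and 3. After Graphite the Jun difference was of similar size, -1.37 ± 0.34, but did not pass (limma adjusted p = 0.0511). The lowest Jun values of all samples were those of rCNT 4 and Graphite 16 (12.33), which shared the array with the highest correlation (0.87). The part of that array in both differences was not tested. Nfkb1 and Rela, which encode NF-kB subunits, were at -0.03 ± 0.16 and -0.22 ± 0.16 after rCNT. After the other 5 materials 0 of 15 passed in limma.

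**Figure D5:**
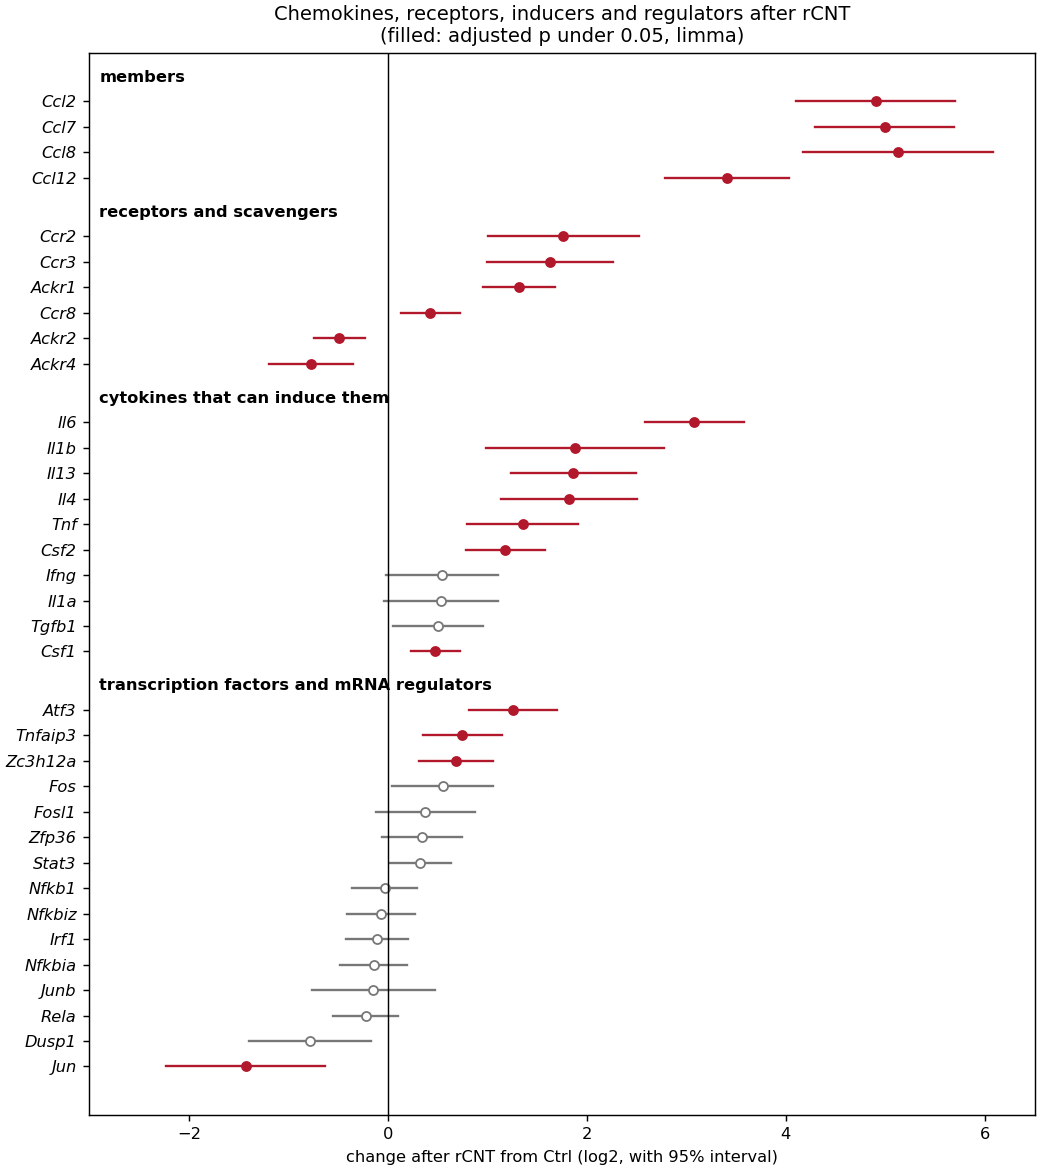
Log2 change after rCNT from Ctrl with its 95% interval (horizontal axis) for the 4 chemokine genes (headed members), receptors and scavengers, inducing cytokines, and transcription and mRNA regulators, 1 gene per row. Filled red points passed an adjusted p under 0.05 in limma; the chemokines lie at 3.41 to 5.13 and the receptors at -0.78 to 1.76, while Il6 (3.08) started from a Ctrl level too dim for its size to be ranked.

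Some lists of cell markers rose after rCNT and others did not. The median change was 1.09 for monocytes and recruited macrophages and 1.31 for eosinophils, but -0.08 for alveolar macrophages and -0.56 for endothelium. The part of these cells in the chemokine values was not tested. Over all genes 12.4% rose and 9.41% fell after rCNT. Of 11 measured markers of monocytes and recruited macrophages, 6 rose and 1 fell, with Ms4a7 at 2.09 ± 0.47, Cd14 at 2.00 ± 0.17 and Itgam at -0.70 ± 0.16. Their mean level was 11.7 to 11.9 in rCNT samples, 11.2 in tCNT, 11.0 to 11.2 in SES, 10.9 to 11.4 in BayTubes, 10.8 to 11.6 in Graphite, 10.9 to 11.5 in fullerene and 10.8 to 10.9 in Ctrl samples. Cd14 also rose after BayTubes (0.97 ± 0.14) and tCNT (0.76 ± 0.17). Csf1r (-0.06), Cx3cr1 (0.24), F13a1 (0.58) and Ms4a4c (-0.41) of that list did not pass after rCNT, and its Ly6c2 was not analysed here. Of 5 tested eosinophil markers 4 rose after rCNT, with a mean level of 8.3 to 9.2, against 7.3 to 7.5 in Ctrl. Of 7 markers of alveolar macrophages, 2 rose (Chil3 and Itgax), and 3 of 5 endothelial markers fell (Pecam1, Kdr and Cdh5).

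By likeness of change, measured as the mean absolute log2 difference from a gene's values over the 21 samples of the 6 materials after subtracting each gene's Ctrl mean, each of the 4 genes was set against 16518 others. The nearest to Ccl2 were Saa1 (0.31), an acute phase protein gene, Ccl7 (0.32) and AA467197 (0.50). The nearest to Ccl7 were Saa1 (0.30), Ccl2 (0.32) and AA467197 (0.44). Ccl2 and Ccl7 were thus each other's second nearest. For Ccl8 the nearest were AA467197 (0.33), Agr2 (0.42) and Slc26a4 (0.48), the last 2 known from mucus-making airway cells. For Ccl12 they were Shcbp1 (0.32), Ccl3 (0.32) and Ube2c (0.32), the last a mitotic ubiquitin-conjugating enzyme gene. The rCNT samples weigh heavily in this measure. Over the 18 samples without rCNT, among 635 genes that passed after at least 1 of tCNT, BayTubes, Graphite and fullerene, Saa1 (0.31) and Ccl7 (0.35) stayed nearest to Ccl2. The nearest to Ccl7 were then Cenpe (0.26), Cdca8 (0.27) and Saa1 (0.29), of which the first 2 encode mitotic proteins. Ccl8 kept AA467197 (0.32), Agr2 (0.44) and Slc26a4 (0.45), and Ccl12 had Shcbp1 (0.23), E2f8 (0.26) and Mad2l1 (0.26). The 4 genes were compared among themselves too, where the smallest difference over the 18 samples was that of Ccl7 and Ccl12 (0.31). That of Ccl2 and Ccl7 was 0.35, and the remaining pairs were nearly equal, from 0.59 to 0.60.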

How the data were processed

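Lung RNA of 24 samples was measured on 12 arrays with 62976 spots. The values deposited by the authors are log2 signals, 1 per spot and sample. Agilent Feature Extraction and limma are named, without versions, per the submitters' processing notes. Background correction and normalization settings are not given in the sources used here, and once sorted, the values of 2 samples were never more than 0.0856 apart, as after quantile normalization.

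The platform annotation gave 31465 spots 1 gene name and 31511 spots none. Names were updated through a RefSeq table (GRCm38.p6): 29036 spots matched by accession, 2075 by symbol and 349 by synonym, and 5 kept the platform symbol. A gene took its spot with the highest mean and had to exceed a sample's 40th percentile in at least 3 samples, which left 16519 of 20738 genes.

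The linear models (limma 3.58.1 with statmod 1.5.0, R 4.3.3) used all 24 samples, with group and dye, the array as a random block (correlation 0.399), and 16 residual and 3.54 prior degrees of freedom. The fit was tested on simulated data. Every member was named, the listed pathway genes could be named, and likeness named the 3 nearest genes of each member. The members, lists and rules were chosen with earlier results of these data known. The Ccl24, Ccl17, cytokine and marker genes of the lists named in the text are a selection made after their values were seen. Alternatives changed the dye term, block, slide, filter, normalization, spot rule, variance prior, threshold and samples. Where a slide or sample was left out, or only the groups compared were fitted, the array correlation of the full fit was used, and a group with 1 sample was assumed to vary like the others. Promoter sequences are RefSeq's. Spots without a gene name were not used here. Some listed genes are not reported here.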

Additional observations from a re-analysis of the deposited data

Results flagged for a closer look

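Among the 4 chemokine genes, 1 group held a sample far from the others: Ccl2 was at 9.55 in fullerene 21, while the next fullerene sample was at 7.95 and the lowest at 7.71. Over the 4 chemokine genes and the 43 other genes tested from the pathway lists, 9 of 141 groups of 4 samples held such a sample, and chance alone gives about 1 in 20. The others were Ackr2 at 12.70 in BayTubes 18, Ackr4 at 9.39 and Csf2 at 8.94 in Graphite 13, and Il1b at 11.52 in Graphite 15, all high. Those that were low were Ifng at 5.93 in BayTubes 18, Junb at 6.23 in fullerene 23, and Nfkbia at 13.06 and Rela at 13.11 in Graphite 13. A sample stood apart when its gap to the nearest other sample, divided by the range of the group, was above Dixon's 95% critical value for 4 samples. Groups of 3 samples were not tested in this way.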

How the results depend on the processing

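The count of chemokine genes that passed against Ctrl was 4 after rCNT and 0 after SES and fullerene under every alternative run. After BayTubes the count of 4 held when any 1 sample was left out, and was 1 with the array as a fixed term and 0 within slide 1, within slide 1 without the dye term and within slide 2 without the dye term. After Graphite the count of 2 was 0 with the array as a fixed term, without an array block, within slide 1 with or without the dye term, within slide 2 without the dye term, with only the groups compared in the fit, at an adjusted p under 0.01 and with the array that rCNT 4 shared with Graphite 16 left out. It was 1 with no filter and with a trended, robust variance prior, and 0 to 3 with 1 sample left out. After tCNT the count of 1 was 0 with the array as a fixed term, without an array block, with slide as a fixed term, within slide 1 with or without the dye term, with no filter, with samples centred on their medians, after another quantile normalization, with the trended prior, at an adjusted p under 0.01 and with the same array left out. It was 2 with only the groups compared in the fit, and 0 to 1 with 1 sample left out. The cause of these changes was not tested, beyond the stricter threshold and the fewer samples.

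Of the comparisons of rCNT with other materials, the count of 4 was 2 against tCNT and 1 against BayTubes with the array as a fixed term, and 0 against BayTubes within slide 2 without the dye term. The alternatives within a slide without the dye term were chosen after seeing the data, because on slide 2 both Ctrl samples carried the same dye. Ccl12 turned its direction within slide 2, at -0.28 for fullerene against Ctrl and 0.30 for SES against BayTubes. Without the dye term there the values were 1.26 and -1.04, the directions of the full fit. Of 876 refits of the 36 other differences among the 5 materials, 36 turned direction and 4 passed. No paired analysis was possible because no replicate number occurs in more than 1 group. The labels pair samples only by array, and the fit with the array as a fixed term is that comparison. With 3 or 4 pools per group, the SE of a change from Ctrl was 0.25 to 0.46 for these genes.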

Other observations

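Graphite 15 combined a high Il1b signal with a mean neutrophil marker level of 11.9 (8 measured genes), against 9.7 to 10.2 in the other Graphite samples. Its Ccl2 signal of 8.85 was near its group mean of 8.80, and its Ccr2 signal of 10.09 was the highest of the Graphite samples. After rCNT 1 of 8 neutrophil markers rose (Retnlg, 1.94 ± 0.38) and 1 fell (Csf3r, -0.50 ± 0.14), with a median of 0.14, near the 12.4% of all genes that rose and the 9.41% that fell.

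Of 6 T cell markers 2 rose after rCNT, Cd3d by 0.50 ± 0.13 and Cd3g by 0.45 ± 0.16. The median of the 6 was 0.10, and over all genes 12.4% rose and 9.41% fell after rCNT. Fibroblast markers gave 1 fall of 5 after rCNT, Pdgfra at -0.95 ± 0.19, and lung epithelium 2 falls of 5, Ager at -0.94 ± 0.23 and Abca3 at -0.55 ± 0.13. The medians of these lists were -0.06 and -0.29. After BayTubes the eosinophil marker Ear6 rose by 1.20 ± 0.17, while Cldn5 and Dpt were lower by 0.87 and 0.59 on the log2 scale. Each was 1 of 5 tested in its list. Over all genes 2.16% rose and 169 of 16519 fell after BayTubes. The mean of 5 heart muscle markers was 11.0 to 11.5 in tCNT samples and 8.8 to 11.4 in samples of the other materials, against 8.6 to 11.0 in Ctrl samples, and none of the 5 passed after any material.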
